A study of Mus musculus with 4 samples.

Results

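Maf, Zeb2, Mef2c and Satb1 are 4 of the 32285 genes counted in single cells of the mouse medial ganglionic eminence (MGE). They were taken by gene symbol, and their transcripts were followed by cell in 7770 Lhx6-positive neurons and 4692 Lhx6-positive progenitors, out of 19031 cells that held at least 3000 unique molecular identifiers (UMIs, each 1 captured transcript) and at most 10% mitochondrial UMIs. Lhx6-positive means that a cell held at least 1 UMI of Lhx6, the LIM homeobox factor that MGE neurons express as they leave the cell cycle. Neurons and progenitors are clusters of cells placed in a class by pan-neuronal markers (such as Dcx, Tubb3 and Stmn2) against progenitor markers (such as Nes, Vim and Hes5). The 4 genes and Lhx6 took no part in the clustering.

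The MGE of the ventral forebrain gives rise to cortical interneurons, which migrate tangentially to the cortex, and to striatal and pallidal neurons. Maf encodes a bZIP factor of postmitotic cortical interneurons, Zeb2 a zinc finger homeobox repressor needed for MGE interneurons to enter the cortex, Mef2c a MADS box factor found early in precursors of parvalbumin interneurons, and Satb1 a chromatin organizer needed for the maturation of Sst interneurons. Nkx2-1 and Lhx6 set the MGE identity on which these later fates build.

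The study asked what loss of the zinc finger factor St18 does to the MGE. MGE of e14.5 embryos on a C57/BL6 ICR mix background, from St18 heterozygous parents, was dissected and pooled by genotype, giving 2 libraries labelled St18(-/-) and 2 labelled wildtype (WT), numbered here in deposit order only. The null is germline and present in every cell, made with E2a-Cre, and removes internal exons, so that St18 transcript can persist. The p-values measure the spread between 2 pooled libraries a group, which may be technical.

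The labels could be checked against St18 itself, in CPM (a gene's UMIs over all UMIs of the same cells, scaled to a fixed total). Among Lhx6-positive neurons null replicate 1 had 29.6, null replicate 2 had 84.1, WT replicate 1 had 51.9 and WT replicate 2 had 70.6. The library labelled null replicate 2 thus held the highest St18 level of the 4. This goes against its label if the allele lowers the transcript, as the paper reports for null against WT neurons. The paper also describes PCR genotyping of the embryos. The tests of the 4 genes are given with and without this library. Genotype also ran with sex. Xist reached 633 and 1495 CPM in the null libraries but 0.191 and 0.101 CPM in the WT libraries, and Y-linked genes were found in all 4 (116, 61.8, 183 and 175 CPM), so that the null pools held both sexes and the WT pools male cells. Median depth per Lhx6-positive neuron was 5951, 8260, 5557 and 5574 UMIs in null replicates 1 and 2 and WT replicates 1 and 2, the order used below. To set shares of cells side by side, each cell was therefore thinned at random to 3000 UMIs. Any pair of libraries shared 4 to 11 cell barcodes, each more than independent draws give (11 against 3.78 for the null libraries, 4 against 2.66 for the WT libraries).

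The promoter windows of the members (RefSeq, GRCm38.p6, the 250 bases before each annotated start) were searched on both strands for letters bound by the factor classes under study. There were 4 windows for Zeb2, 3 for Mef2c and 5 for Satb1, some of which overlap, and Maf was not analysed here. The homeodomain core TAATTA, the kind of site read by LIM homeodomain factors such as Lhx6, lay in 1 of the 12 windows, against 4.84% of all 32851 windows of that length. The E-box CACCTG, bound by ZEB proteins, lay in 1 of the 12, against 17.2% of all windows. The core of the Maf recognition sequence, TGCTGAC, lay in 0 of the 12, against 3.81% of all. The 2 windows with a match are printed to show where the letters lie, with the match in capitals. The first is Mef2c, chr13:83523406-83523655 on the plus strand, and the second is Satb1, chr17:51826589-51826838 on the minus strand, each written 5′ to 3′ along the gene.
Mef2c: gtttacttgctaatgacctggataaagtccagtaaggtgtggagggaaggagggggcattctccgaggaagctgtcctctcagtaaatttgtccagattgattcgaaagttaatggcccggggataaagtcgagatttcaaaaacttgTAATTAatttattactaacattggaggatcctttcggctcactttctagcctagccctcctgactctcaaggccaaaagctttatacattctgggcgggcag
Satb1: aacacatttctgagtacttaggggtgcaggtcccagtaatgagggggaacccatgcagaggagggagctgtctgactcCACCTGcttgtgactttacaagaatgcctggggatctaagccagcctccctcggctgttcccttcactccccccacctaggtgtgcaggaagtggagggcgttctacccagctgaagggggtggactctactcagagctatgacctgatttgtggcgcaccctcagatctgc
A match is a run of letters and not a shown binding site. On GRCm38 the whole genes, all protein coding, lie at chr8:115682942-115707794 on the minus strand (Maf, ENSMUSG00000055435), chr2:44983632-45117395 on the minus strand (Zeb2, ENSMUSG00000026872), chr13:83504034-83667080 on the plus strand (Mef2c, ENSMUSG00000005583) and chr17:51736187-51833290 on the minus strand (Satb1, ENSMUSG00000023927).

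All 4 genes were detected in Lhx6-positive neurons of every library. Maf stood at 299, 417, 284 and 208 CPM, and 45.0%, 47.8%, 40.4% and 32.9% of neurons held at least 1 Maf UMI after thinning. Exact 95% binomial intervals (Clopper-Pearson, counting error only) ran from 43.1% to 47.0% in null replicate 1 and from 30.6% to 35.2% in WT replicate 2. Zeb2 stood at 753, 935, 594 and 465 CPM, with 67.4%, 70.3%, 61.7% and 52.8% of neurons positive. For both genes the null libraries stood above the WT libraries, with WT replicate 1 close to null replicate 1 for Maf. Mef2c stood at 74.8, 108, 79.5 and 61.0 CPM, with 13.6%, 18.4%, 14.2% and 11.5% of neurons positive, and its null and WT libraries overlapped. Satb1 stood at 142, 162, 130 and 139 CPM, with 31.5%, 34.1%, 29.8% and 29.0% positive. Its null libraries also stood above its WT libraries, by a small margin, and 41.5% of the 13159 genes tested had both null libraries above both WT libraries in plain CPM. Without thinning the shares were higher in every library, with Satb1 at 51.8%, 62.7%, 44.5% and 43.0%.

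Free RNA gives UMIs in cells that do not make a transcript, so erythroid cells, which should lack the 4 genes, served as the background. Over 157 erythroid cells (median 11387 UMIs) Maf was found in 0 cells after thinning and stood at 3.29 CPM. The upper limit of its share was 1.91% by 3 counts of the total and 2.32% by the exact interval. Zeb2 was found in 3.82% of erythroid cells, and Mef2c and Satb1 in 0.637% each, with an exact upper limit of 3.50%. Unthinned, these shares were 3.18% for Maf, 10.2% for Zeb2, 1.27% for Mef2c and 1.91% for Satb1. Every share in neurons thus lay above the erythroid share. Lhx6 itself, which defines the cells studied, gave a UMI in 16.3%, 19.5%, 5.56% and 16.1% of erythroid cells without thinning, so an Lhx6-positive cell need not express it. The other non-neural cells with the genes were 97 microglia (median 9656 UMIs), where Maf stood at 372, Zeb2 at 394 and Mef2c at 338 CPM over all libraries and Satb1 at 27.4 CPM.

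**Figure D1:**
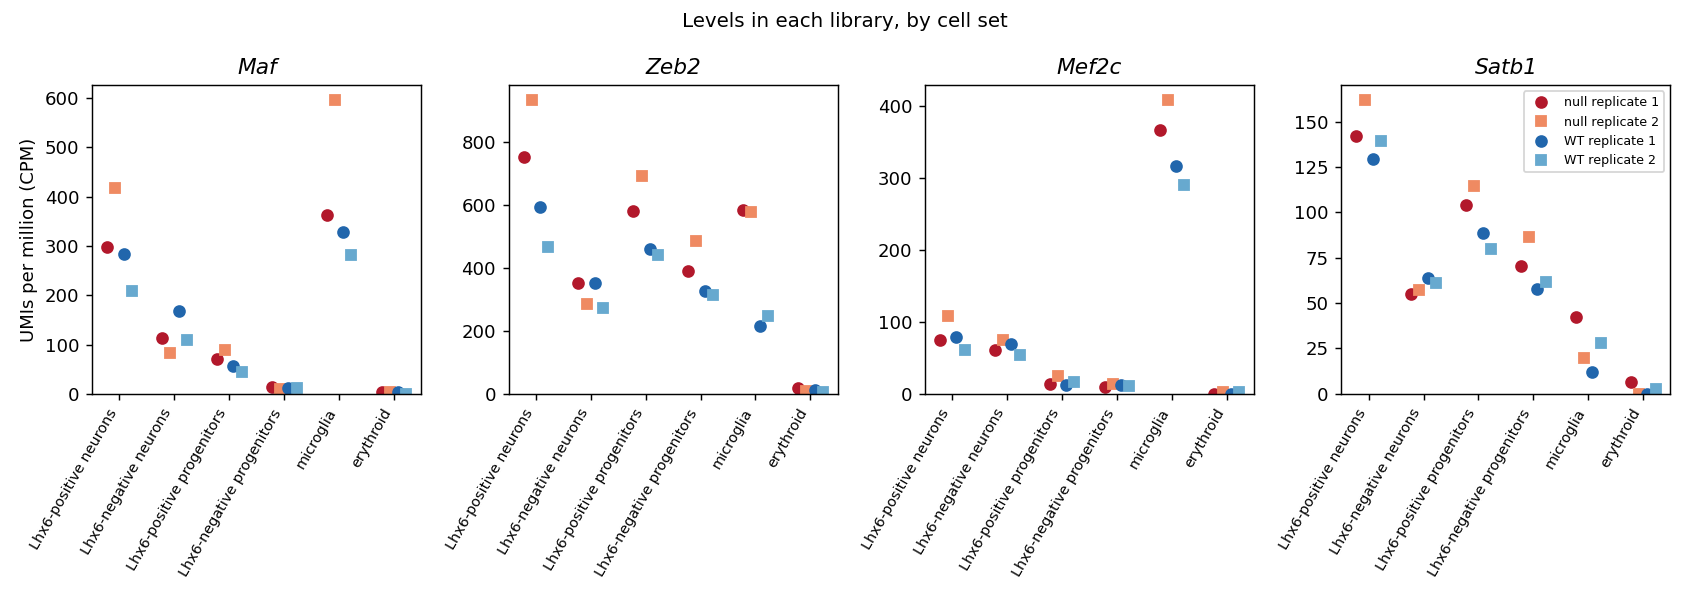
Level of each gene (CPM, linear axis from 0, a separate scale for each gene) in 6 sets of cells, with 1 point a library (red and orange, St18 null replicates 1 and 2; dark and light blue, WT replicates 1 and 2). Maf and Mef2c stood far higher in neurons than in progenitors, Zeb2 and Satb1 did not, and the erythroid points lay near 0.

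Maf and Mef2c were much lower in progenitors than in neurons, Satb1 differed less, and for Zeb2 level and share of cells ran in opposite directions. Maf stood at 70.1, 88.6, 56.9 and 43.3 CPM in Lhx6-positive progenitors, so that neurons held 4.68-fold more in the mean of the log ratios (lowest 4.26, highest 4.99 over the 4 libraries). Mef2c stood at 14.3, 24.9, 12.4 and 15.9 CPM, and neurons held 4.86-fold more (3.84 to 6.42). For both genes every library showed the difference. Satb1 stood at 104, 115, 88.8 and 79.6 CPM in progenitors and was 1.49-fold higher in neurons (1.37 to 1.75). Zeb2 stood at 580, 691, 460 and 441 CPM in progenitors and was 1.24-fold higher in neurons (1.05 to 1.35). The share of cells with Zeb2 ran the other way, at 76.9%, 81.5%, 68.6% and 67.3% of progenitors after thinning, and no order between the classes was read for Zeb2. Shares in progenitors were 10.9% to 16.3% for Maf, 2.88% to 5.64% for Mef2c and 20.7% to 28.5% for Satb1. In 2 libraries the Mef2c share in progenitors lay under the erythroid upper limit of 3.50%. The Mef2c level there (at least 12.4 CPM) lay above that of erythroid cells (1.10 CPM, exact Poisson interval 0.133 to 3.96). It lay below that of free RNA in every library (29.08, 27.4, 24.96 and 31.48 CPM in barcodes of fewer than 100 UMIs). Maf too stood lower in progenitors than in free RNA in every library (values below), while Zeb2 and Satb1 stood higher. The part of free RNA in the progenitor levels was not tested. In progenitors too Maf, Zeb2 and Satb1 had both null libraries above both WT libraries in plain CPM, as had 47.2% of 12877 genes. Neurons and progenitors are classes of cells of the same 4 libraries, and the ratios are descriptions with no test.

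Cells of the same class with no Lhx6 UMI were the nearest comparison. In progenitors Maf was 5.41-fold higher in Lhx6-positive than in Lhx6-negative cells (3.58 to 9.92). Zeb2 was 1.43-fold, Mef2c 1.44-fold (1.04 to 1.83) and Satb1 1.29-fold to 1.53-fold higher. In neurons the ratios were 2.56-fold for Maf (1.68 to 5.08), 2.12-fold for Zeb2, 1.24-fold for Mef2c and 2.41-fold for Satb1. The log2 ratio for Maf was 1.39, 2.34, 0.749 and 0.934 in the order of libraries used above, and the groups were not compared in it. A cell with no Lhx6 UMI may still express Lhx6 below detection. The sets compared also differ in the kinds of cells they hold, which these ratios do not separate. Progenitor clusters 6, 13 and 19, for instance, held Lhx6 at 34.1, 35.7 and 32.7 CPM over all their cells. Over progenitor clusters Maf did not always run with Lhx6, and cluster 12 held Lhx6 at 373 and Maf at 29.7 CPM. Among Lhx6-positive neurons the share with Maf did not follow Lhx6 steadily. Of neurons with 1 Lhx6 UMI after thinning, 46.7%, 47.6%, 44.7% and 33.3% held Maf. Of those with at least 5 (82, 119, 43 and 42 neurons), 30.5%, 31.9%, 44.2% and 19.1% did. At 2 Lhx6 UMIs the shares were 46.7%, 50.5%, 39.1% and 35.0%. For Satb1 the order was the other way in each library, with 29.8%, 35.7%, 31.7% and 30.3% at 1 UMI and 36.6%, 41.2%, 41.9% and 42.9% at 5 or more, though not at the counts between.

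Maf and Zeb2 were the pair most often detected in the same neuron, and in the means over libraries Mef2c went with both less strongly and Satb1 least. Maf and Zeb2 shared neurons with odds ratios of 4.70, 6.72, 6.12 and 7.26 (1 means independence). Both were found in 38.0%, 42.4%, 34.1% and 27.0% of neurons, where the product of the single shares gives between 17.4% and 33.6%, lower in each library. The pairing was asymmetric, in that 84.4%, 88.6%, 84.2% and 82.0% of Maf-positive neurons held Zeb2, while 56.4%, 60.2%, 55.2% and 51.1% of Zeb2-positive neurons held Maf. Maf and Mef2c had odds ratios of 2.80, 3.14, 2.96 and 1.93, and Zeb2 and Mef2c of 2.57, 2.47, 2.25 and 1.47. The 3 pairs with Satb1 came to 1.14 to 1.57 with Maf, 1.19 to 1.57 with Mef2c and 1.04 to 1.34 with Zeb2. They lay under the other pairs of the same library except in WT replicate 2, where Mef2c with Satb1 (1.57) was above Zeb2 with Mef2c (1.47). Every one of the 6 pairs was above 1 in 4 of 4 libraries, and how often pairs of other genes are was not computed. The ratios share the same cells, all thinned to 1 depth.

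Part of the pairing lay between clusters. Computed within clusters (Mantel-Haenszel), the odds ratio was 2.02 to 3.07 for Maf and Zeb2, 1.55 to 1.80 for Maf and Mef2c, and 1.46 to 1.91 for Zeb2 and Mef2c, each above 1 in 4 of 4 libraries. The Satb1 pairs came to between 0.987 and 1.32 within clusters. In progenitors the Maf and Zeb2 odds ratio over all cells was 1.63 in the geometric mean, from 1.15 to 2.56, where neurons had at least 4.70. Within clusters it was 0.962 to 2.49 in progenitors, which overlaps the range in neurons. Maf and Mef2c together in progenitors rested on 15, 22, 8 and 3 cells, with ratios from 0.870 to 3.39.

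**Figure D2:**
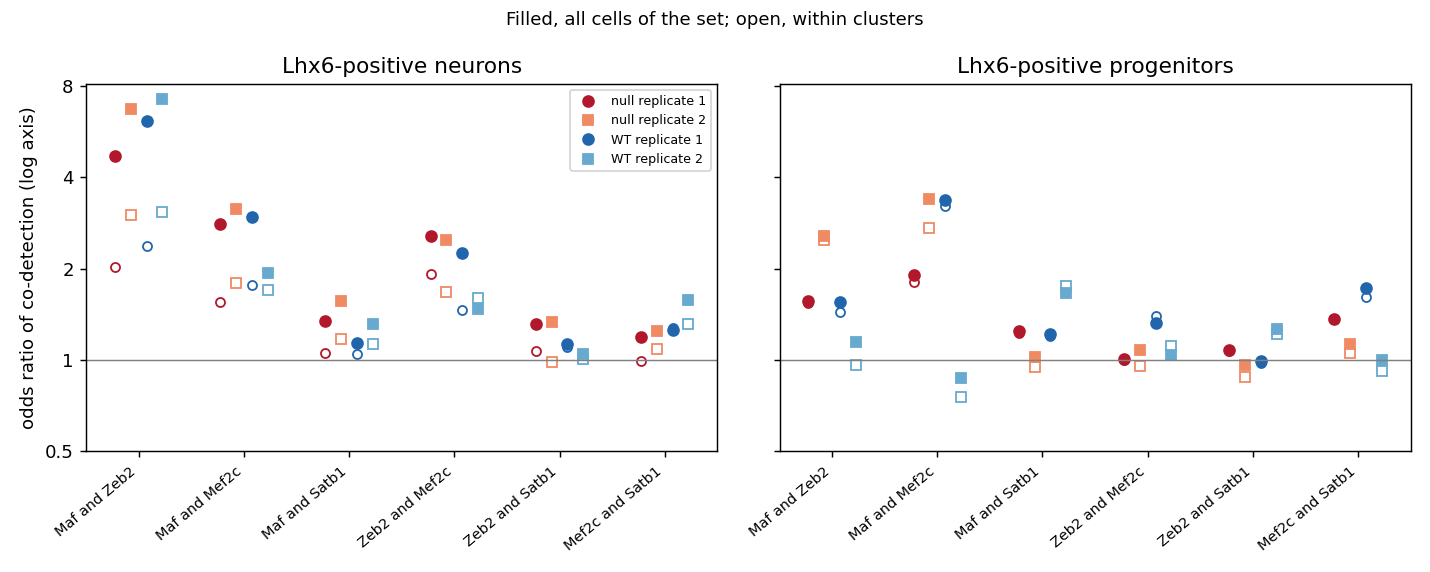
Odds ratio of co-detection (log axis) for the 6 pairs of genes in Lhx6-positive neurons and in Lhx6-positive progenitors, with 1 point a library (filled, all cells of the set; open, within clusters) and cells thinned to 3000 UMIs. In neurons Maf with Zeb2 stood highest in every library (4.70 to 7.26), and the Satb1 pairs lay between 1.04 and 1.57.

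Counting members per neuron restates the pairing from the same cells and detections, and is not separate support for it. All 4 were found in 84, 86, 52 and 31 neurons, or 3.28%, 4.87%, 2.91% and 1.87%, against 1.30%, 2.11%, 1.06% and 0.580% from the product of the shares. None of the 4 was found in 17.3%, 16.2%, 20.9% and 27.5% of neurons, against 10.6%, 8.33%, 13.7% and 19.9%. Both ends were thus more frequent than independence gives, in 4 of 4 libraries. Maf with none of the others was found in 4.72%, 2.72%, 4.37% and 3.62% of neurons, against 8.70%, 7.63%, 9.32% and 9.76%. Maf with Mef2c but neither Zeb2 nor Satb1 was found in 6, 4, 3 and 6 neurons. Maf, Zeb2 and Mef2c together without Satb1 made up 5.46%, 7.48%, 5.60% and 3.02%, against 2.83%, 4.08%, 2.48% and 1.42%.

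**Figure D3:**
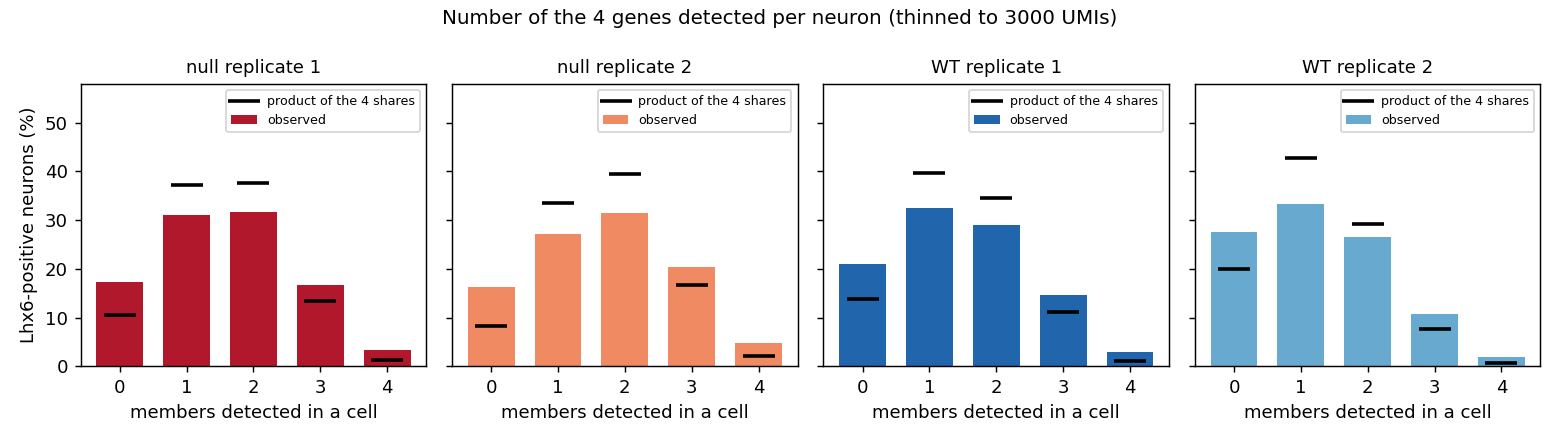
Share of Lhx6-positive neurons (percent, from 0) in which 0, 1, 2, 3 or 4 of the genes were detected after thinning, by library, with bars for the observed share and black dashes for the product of the 4 single shares. Neurons with 0 and with 3 or 4 of the genes were above the dashes, and those with 1 or 2 below them.

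Over the 12 neuron clusters with at least 50 Lhx6-positive neurons, the members peaked in different places. Clusters 14, 15 and 20 were marked by genes of the lateral ganglionic eminence (LGE), and cluster 16 by genes of the caudal one (CGE). Over all their cells, clusters 14, 15 and 20 held Lhx6 at 47.5, 41.2 and 64.1 CPM. This is below its level in free RNA (155 to 218 CPM). Cluster 16, by contrast, held Lhx6 at 575 CPM and the MGE factor Nkx2-1 at 379 CPM beside its CGE marks. Cluster 0, led by genes such as Epha5 and Nxph1, had the highest Maf (777 ± 84.5 CPM, SD over 4 libraries), Zeb2 (1497 ± 108 CPM) and Mef2c (206 ± 34.7 CPM), and each of these ranges lay above that of the next cluster. Maf came next in cluster 2, led by Npy and Rprm, at 489 ± 51.7 CPM. Zeb2 came next in clusters 16 and 2, at 828 ± 168 and 798 ± 81.4 CPM, whose ranges overlapped. Below its first step, neighbouring clusters overlapped in Maf down to the lowest, cluster 20, at 12.4 ± 16.1 CPM. Mef2c separated cluster 0 from cluster 2, at 206 against 85.3 ± 41.2 CPM, and was lowest in cluster 5, led by Shh, Zic1 and Lhx8, at 11.7 ± 4.50 CPM. Cluster 0 is thus the one in which Maf and Mef2c were both high, and cluster 2 held Maf with less Mef2c. Npy was also among the leading genes of cluster 1. In null replicate 2 cluster 2 held only 44 Lhx6-positive neurons.

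Cluster 11, led by Sst and Adarb2, had the highest Satb1, at 240 ± 33.2 CPM, and its range (203 to 283 CPM) met that of cluster 16. It also had the second highest Mef2c (108 ± 16.1 CPM) and the lowest Zeb2 (88.2 ± 27.9 CPM), the latter below every library of the cluster above it. Maf stood at 56.8 ± 17.5 CPM there. Cluster 11 thus held much Satb1 with little Zeb2 and little Maf. Cluster 16, whose Satb1 range met that of cluster 11, held Zeb2 at 828 CPM. Cluster 1, led by St18 and Nav2, held Zeb2 at 698 ± 123 CPM with Mef2c at 20.4 ± 2.76 CPM. It is one of the clusters nearest the boundary between neurons and progenitors. In progenitors cluster 9 had the highest Maf (144 CPM, from 96.2 to 212) and Zeb2 (740 ± 250 CPM). Its leading genes included Hist1h2bc, Pttg1 and the Notch ligands Dll3 and Dll1. Cluster 9 too is one of the clusters nearest the boundary between the classes. Maf was lowest in progenitor cluster 4 (14.9 ± 5.58 CPM), and every neighbour in the Maf order of progenitor clusters overlapped.

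**Figure D4:**
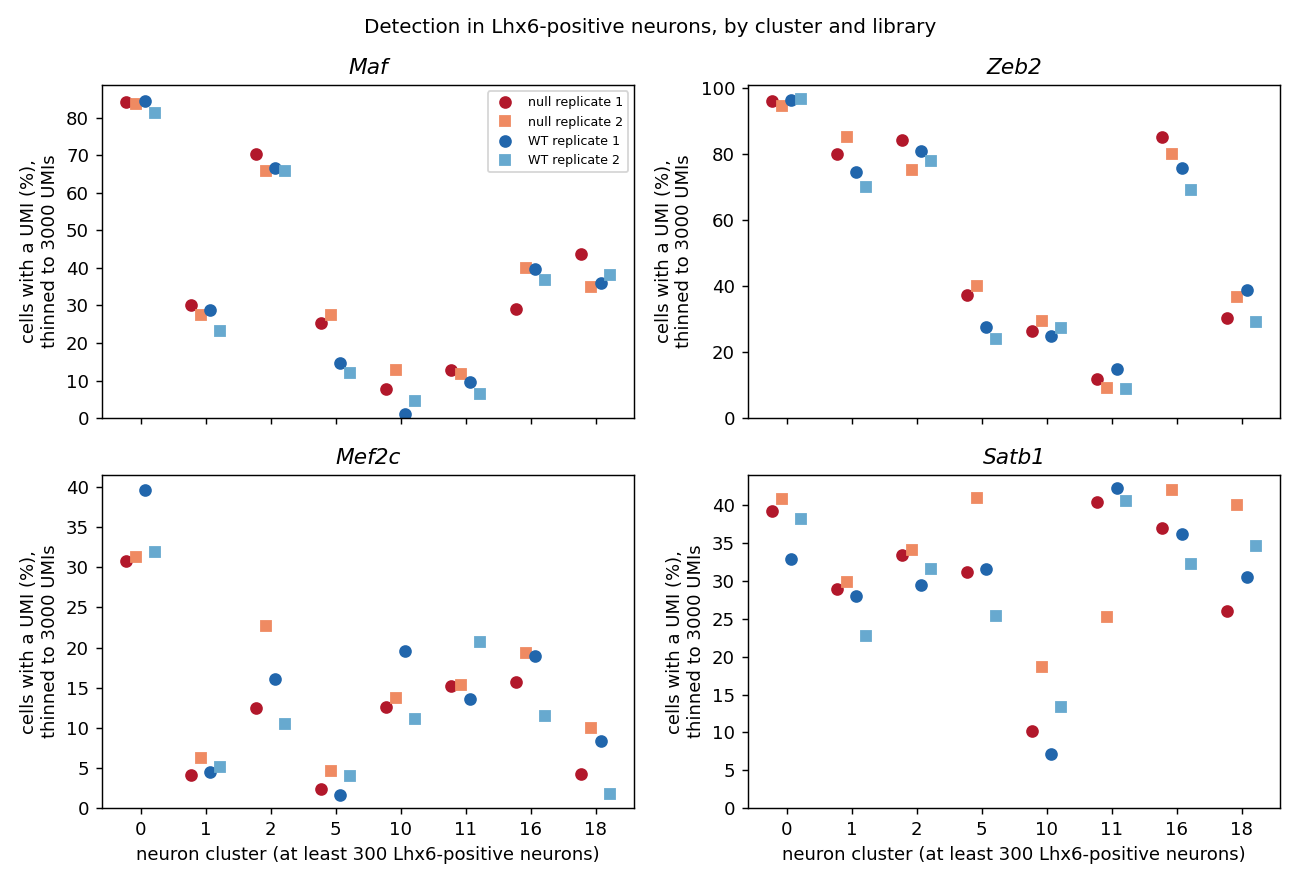
Share of Lhx6-positive neurons with a UMI of each gene (percent, thinned to 3000 UMIs, linear axes from 0 with a separate scale for each gene) in the 8 clusters with at least 300 such neurons, with 1 point a library. Maf, Zeb2 and Mef2c peaked in cluster 0, Zeb2 was lowest in cluster 11, and Satb1 was spread over most clusters.

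By the pattern over these 12 clusters, the genes most like each member were picked among 6437 genes by Pearson's r of log2(CPM + 10), as a description. For Maf they included Rdx (r = 0.958) and Sh3rf3 (0.918). For Zeb2 they were Ctnnb1 (0.945), Baz2a (0.929) and Tiparp (0.920). For Mef2c they were Pde4dip (0.821), Dlgap1 (0.778) and Epha5 (0.775), and for Satb1 Elavl2 (0.937), Sox6 (0.918) and Npas3 (0.890). No member was among the 3 most alike of another, with Zeb2 at r = 0.686 to Maf in place 203.

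Odds ratios with 36 listed genes (relatives, MGE lineage factors, and interneuron migration and subtype genes) described which neurons held each member, and 28 of them were detected often enough for a value. Maf was enriched with 16 and depleted with 5 of them in all 4 libraries, Zeb2 with 19 and 5, Mef2c with 7 and 9, and Satb1 with 9 and 2. The same share over all genes was not computed, so these counts only describe the listed genes. Cxcr4, the Cxcl12 receptor of tangentially migrating interneurons, had the highest odds ratio with Zeb2 (geometric mean 9.42, at least 5.07 in each library), with Maf (5.55, from 3.97 to 6.67) and with Mef2c (5.40), though on 22 to 47 Cxcr4-positive neurons a library. Among Cxcr4-positive neurons 76.6%, 86.0%, 78.7% and 77.3% held Maf. Next for Maf came Ackr3, the second Cxcl12 receptor (3.72), and the neuregulin receptor Erbb4 (3.59). Next for Zeb2 came the ephrin receptor Epha4 (4.02) and Ackr3 (3.89), and next for Mef2c the synaptic protein gene Elfn1 (3.03) and Erbb4 (2.08).

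Lhx8, Nkx2-1 and Nrp1 were found less often with Maf and Mef2c. Lhx8, the LIM factor of cholinergic neurons, had odds ratios of 0.278 with Zeb2, 0.382 with Maf and 0.385 with Mef2c. Nkx2-1, which cortical interneurons switch off, had 0.509 with Maf and 0.418 with Mef2c. Nrp1, a semaphorin receptor, had 0.293 with Maf (0.257 to 0.315). Npy divided the members, with 2.88 for Maf, 3.39 for Zeb2 and 1.15 for Mef2c (0.999 to 1.33). Sst divided them differently, with 1.77 for Satb1 (1.62 to 2.02) and 0.705 for Zeb2 (0.615 to 0.827). St18, the gene targeted, had 0.554 with Maf, 0.532 with Mef2c and 1.46 with Zeb2 (1.11 to 2.12). Neurons that held St18 transcript thus held Maf and Mef2c less often and Zeb2 more often, in null and WT libraries alike.

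The null and WT libraries were then compared on counts summed per library, in a test of all genes (edgeR quasi-likelihood, Benjamini-Hochberg). In summed counts, fewer cells of a type and less RNA per cell cannot be told apart. In Lhx6-positive neurons 0 of the 4 members were called at an adjusted p under 0.05, where 118 of 13159 genes (0.897%) were called, 25 higher and 93 lower in the null. At an unadjusted p under 0.05 there were 2 members, Maf and Zeb2, where 18.6% of all genes passed. DESeq2 called 1 member, Zeb2, and 333 genes. The log2 fold of null over WT was 0.53 ± 0.15 (SE) for Zeb2 (edgeR adjusted p = 0.123), 0.39 ± 0.17 for Maf (0.257), 0.23 ± 0.17 for Mef2c (0.494) and 0.04 ± 0.11 for Satb1 (0.890). With TMM scaling Zeb2 alone of the 4 had both null libraries (741 and 863 CPM) above both WT libraries (632 and 483 CPM), as had 26.2% of all genes. For a single value, the exact two-sided permutation test of 2 against 2 libraries cannot go below p = 0.333.

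In Lhx6-positive progenitors 0 of the 4 members were called, where 92 of 12877 genes (0.714%) were called. Maf and Zeb2 passed at an unadjusted p under 0.05, as did 17.5% of all genes, and DESeq2 called 0 members among its 298 genes. The log2 folds were 0.47 ± 0.15 for Maf (edgeR adjusted p = 0.196), 0.30 ± 0.11 for Zeb2 (0.231), 0.27 ± 0.23 for Mef2c (0.582) and 0.19 ± 0.11 for Satb1 (0.432). Maf, Zeb2 and Satb1 had both null libraries above both WT libraries with TMM scaling, where 26.2% of all genes had. For Zeb2 these were 571 and 618 CPM against 492 and 471 CPM.

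**Figure D5:**
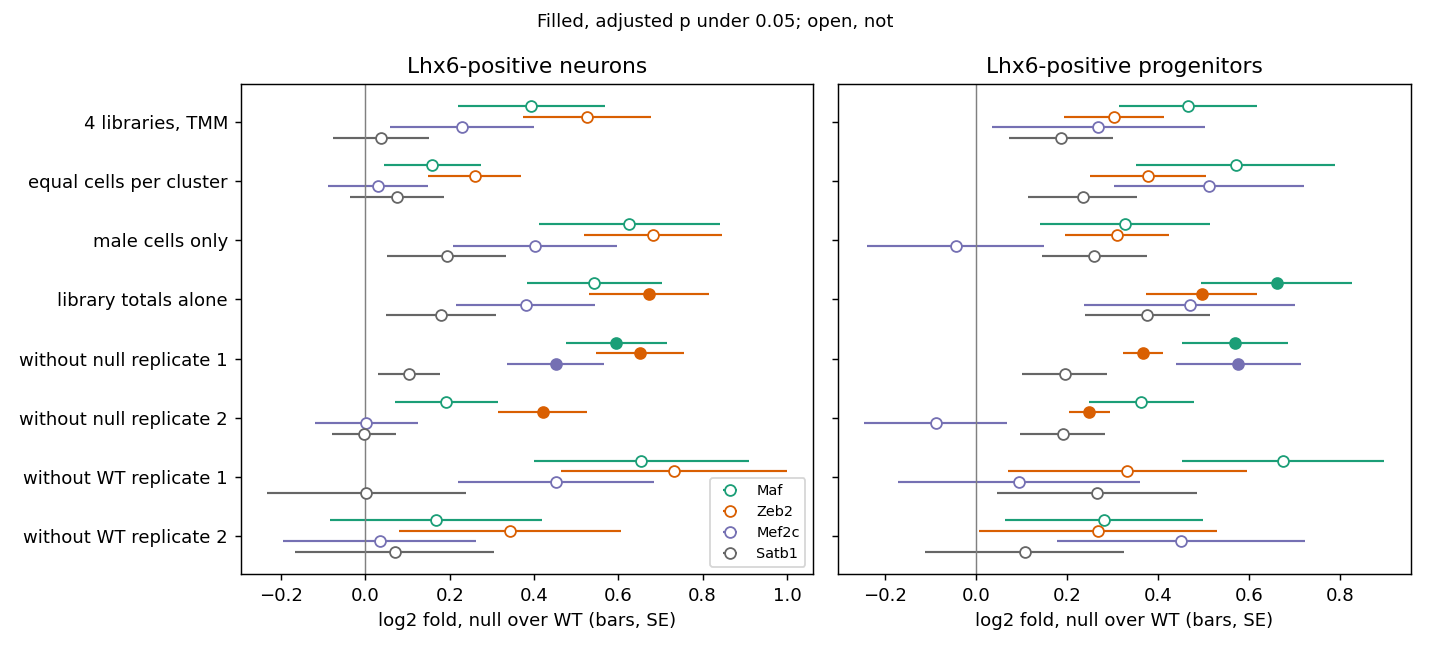
Log2 fold of St18 null over WT (edgeR, bars for the standard error) for each member in Lhx6-positive neurons and progenitors, with all 4 libraries and TMM scaling in the top row and under alternatives in the rows under it, with filled points where the adjusted p was under 0.05. Most points lay above 0 and were open.

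Single libraries moved the calls, as did the method and the scaling, and they moved the count over all genes too. Without null replicate 1 there were 3220 of 13149 genes called in neurons and 3529 of 12756 in progenitors, and without null replicate 2 there were 892 of 13080 and 1307 of 12640. Without null replicate 1, which leaves null replicate 2 alone in its group and takes its spread from the WT pair, the neurons gave 0.59 for Maf (edgeR adjusted p = 0.0018), 0.65 for Zeb2 (0.000285) and 0.45 for Mef2c (0.00951). Without null replicate 2, the library with the highest St18, null replicate 1 is alone in its group in the same way. Zeb2, not called with all 4 libraries, was then called at 0.42 (edgeR adjusted p = 0.0269), Maf was not, and Satb1 was at -0.004. In progenitors Maf (0.57, edgeR adjusted p = 0.00357), Zeb2 (0.37, 8.5e-05) and Mef2c (0.58, 0.00854) were called without null replicate 1, and Zeb2 alone (0.25, 0.0049) without null replicate 2. Leaving out either WT library called no member in either class. In male cells alone (a Y-linked UMI and at most 1 Xist UMI) neuronal Zeb2 stood at 0.68 (edgeR adjusted p = 0.109) and Maf at 0.63. Within each cluster the same number of cells was also taken from each library (equal cells per cluster), which left 1056 neurons a library. Zeb2 then stood at 0.26 ± 0.11 and Maf at 0.16 ± 0.12 in neurons, lower than with all cells. In progenitors the same step gave higher values, 0.38 for Zeb2, 0.57 for Maf and 0.51 for Mef2c, and no member was called in either class.

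The split of the neurons between clusters 0 and 2 moved with the groups. Cluster 0 held 24.0%, 36.5%, 13.5% and 8.69% of Lhx6-positive neurons, and supplied 53.6%, 71.9%, 39.7% and 30.9% of their Maf UMIs and 57.1%, 62.6%, 45.6% and 26.2% of their Mef2c UMIs. Cluster 2 held 12.1%, 2.49%, 25.3% and 20.8% of neurons. Clusters 0 and 2 share leading genes such as Maf, Epha5 and Erbb4, and their cells differed in depth (median 6288 and 4744 UMIs). Null replicate 2, with the largest share of cluster 0, was also the deepest library. The part of depth in the split was not tested. Within cluster 0 Maf stood at 668, 872, 797 and 771 CPM, the null and WT libraries overlapping. Zeb2 stood there at 1508, 1643, 1446 and 1392 CPM, the null libraries above the WT libraries, as for 28.9% of the genes of at least 20 CPM in that cluster. Over the 12 neuron clusters, both null libraries were above both WT libraries in 9 for Zeb2, 7 for Maf, 4 for Satb1 and 1 for Mef2c, and below them in 2 for Satb1. In a given cluster between 18.8% and 37.1% of genes were above in this way and between 14.2% and 17.5% below. The clusters come from the same 4 libraries and are not independent, and 1 of them had as few as 4 neurons in a library. Free RNA, read in barcodes of fewer than 100 UMIs, held Zeb2 at 359, 325, 248 and 205 CPM and Maf at 95.1, 96.8, 68.2 and 53.0 CPM, the null libraries above the WT libraries, while Mef2c and Satb1 overlapped there. Its part in the difference was not tested.

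The listed relatives and partners were tested in the same fits. Of 11 relatives of the members (among them Zeb1 and the other Maf and Mef2 factors), 7 were tested and 0 were called in either class, with medians of 0.22 in neurons and 0.23 in progenitors beside -0.004 and -0.0003 over all genes. Zeb1, the paralog of Zeb2, stood at 0.37 in neurons (edgeR adjusted p = 0.160) and at 0.52 in progenitors (0.104). Of 14 MGE lineage factors, 1 was higher in null neurons, the proliferation marker Mki67 (0.81 ± 0.14, edgeR adjusted p = 0.0362), where 0.19% of all genes were called higher. Of 12 interneuron migration and subtype genes, 1 was lower, Sst (-1.03 ± 0.13, edgeR adjusted p = 0.0212), where 0.707% of all genes were called lower. Neither list had a call in progenitors. Both calls were lost in male cells alone, where Mki67 stood at 0.66 (edgeR adjusted p = 0.115) and Sst at -1.34 (0.192). They were lost too with equal cells per cluster (Mki67 0.78, edgeR adjusted p = 0.0637, and Sst -0.58, 0.199) and with no filter on low counts (0.83 and -1.02, 0.344 for both). That of Mki67 was also lost without the clusters nearest the class boundary (0.66, edgeR adjusted p = 0.0924) and without WT replicate 1 (0.66, 0.189), and DESeq2 gave it no adjusted p. Without null replicate 2 both were called (Mki67 0.73, edgeR adjusted p = 0.0021, and Sst -0.90, 2.6e-05). Apart from Sst with equal cells, the folds under these settings were within 1.5 times those of all 4 libraries.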

How the data were processed

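Single cells of pooled e14.5 MGE were captured with 10x Genomics chemistry, in 4 libraries of 70991150 to 92984713 UMIs (2 a group), with median UMIs per cell from 6186 to 9352. The deposited values are raw UMI counts per gene and barcode, made by the authors with Cell Ranger 5.0.1 per the labels on GRCm38. The matrix header gives another version. All barcodes were deposited, and those with at least 3000 UMIs, 200 genes and at most 10% mitochondrial UMIs were kept as cells. Cells were clustered in Seurat 5.3.0 into 28 clusters. No doublets were removed: Scrublet (scanpy 1.11.5) marked 0 to 2 cells a library at its own threshold, so leaving out the highest scores was an alternative.

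Counts of Lhx6-positive cells were summed per library and class and tested with edgeR 4.0.16 (TMM, quasi-likelihood), with DESeq2 1.42.0 as an alternative. The fits were tested on simulated data. The members and lists were chosen with earlier results of these data known. Genes named are the members, their relatives, MGE lineage and interneuron genes, and the 3 genes most like each member, of which 1 is not reported here; class markers, genes leading a cluster and Xist are named only to say what cells or libraries are. Leaving out clusters at the class boundary was chosen after seeing the data. Intervals cover counting error only.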

Additional observations from a re-analysis of the deposited data

How the results depend on the processing

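The alternatives changed counts of called genes far more than the members' directions. In Lhx6-positive neurons the 118 genes called became 65 with cells of at least 5000 UMIs, 188 with at least 2 Lhx6 UMIs, 33 with all cells of the class, 48 without the highest doublet scores, 17 in male cells, 6 with equal cells per cluster, 51 without the clusters nearest the class boundary, 410 under library totals alone (308 higher, 102 lower), 0 with no filter on low counts (2215 at an unadjusted p under 0.05) and 333 with DESeq2. In progenitors the 92 became 57 with all cells, 19 without the highest doublet scores, 61 in male cells, 7 with equal cells per cluster, 395 under library totals (295 higher, 100 lower), 853 with no filter and 298 with DESeq2. Leaving out 1 library gave 64 to 3220 genes in neurons and 7 to 3529 in progenitors. Library totals moved the median of all genes by 0.14 in neurons and 0.19 in progenitors. They brought Zeb2 to 0.67 in neurons (edgeR adjusted p = 0.0184) and Maf and Zeb2 to 0.66 (0.0468) and 0.50 (0.0442) in progenitors. DESeq2 gave Zeb2 0.52 in neurons (0.0205), and no filter gave Maf 0.48 in progenitors (edgeR adjusted p = 0.0234). Without the clusters marked as pallial (cortical), LGE or CGE, Zeb2 stood at 0.58 and Maf at 0.49 in neurons, and neither was called. The clusters left out include cluster 16, which held Lhx6 at 575 CPM. Leaving out 1 library gave, in neurons, 0.17 to 0.65 for Maf, 0.34 to 0.73 for Zeb2, 0.0019 to 0.45 for Mef2c and -0.0039 to 0.10 for Satb1. In progenitors it gave 0.28 to 0.68 for Maf, 0.25 to 0.37 for Zeb2, -0.088 to 0.58 for Mef2c and 0.11 to 0.27 for Satb1. Directions turned in 3 cases, all within 1 standard error of 0: Mef2c in progenitors to -0.044 in male cells and to -0.088 without null replicate 2, and Satb1 in neurons to -0.0039 without null replicate 2. The cause was not tested. Of the members' shares and odds ratios under the alternatives, 105 moved by less than the spread between libraries and 15 by more, and 0 turned. The 105 include every setting without 1 library, which cannot move a mean of 4 libraries by that spread. The 15 include all 4 shares with unthinned counts. They also include 4 of the 6 odds ratios where a member needed at least 2 UMIs. No paired analysis was possible because the labels carry no replicate numbers.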

Other observations

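Detection of the members in Lhx6-positive progenitors was set beside Mki67, a marker of dividing cells. After thinning, progenitors with an Mki67 UMI held Zeb2 more often than those without in 4 of 4 libraries. The shares were 78.0% against 74.1% in null replicate 1, 70.9% against 63.7% in WT replicate 1 and 69.4% against 63.3% in WT replicate 2, and progenitors with Mki67 reached 84.1% in null replicate 2. Mef2c was also found more often with Mki67 in 4 of 4 libraries, at 3.54%, 5.87%, 3.30% and 4.34% against 3.31%, 5.07%, 1.96% and 3.17%, and Maf and Satb1 each in 3 of 4. Several of the Mef2c shares lay under the erythroid upper limit of 3.50%. The sets without Mki67 held only 483, 296, 306 and 316 progenitors, so no order was read for Mef2c.

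Unc5b, the netrin receptor gene that Zeb2 is known to repress, was too rare to follow by cell. It stood at 2.24 and 2.86 CPM in Lhx6-positive neurons of the null libraries and at 1.24 and 1.72 CPM in the WT libraries, and 0.336% to 0.625% of neurons held a UMI. In plain CPM 41.5% of all genes tested had both null libraries above both WT libraries. The log2 fold of null over WT was 0.64 ± 0.32 for Unc5b (edgeR adjusted p = 0.312). In progenitors the fold went the other way, at -0.41 ± 0.57 (edgeR adjusted p = 0.735).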
